A study of Mus musculus with 6 samples.

Results

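The genes described here are *Lipe*, *Prkaca* and *Prkacb*, which encode hormone-sensitive lipase and the alpha and beta catalytic subunits of protein kinase A. They were found by the gene symbol of their wells on a real-time PCR array for fatty acid metabolism, and each had 1 well among the 84 gene wells of a plate. The cells were mature adipocytes of the mouse line 3T3-L1, a fibroblast-like preadipocyte line that stores fat after hormonal induction, treated from day 14 of differentiation. The treated group of 3 samples received 500 ng/ml of recombinant murine interleukin-15 (rmIL-15) over 24 hours, the untreated group of 3 received none, and all 6 came from the same line with no genetic change named. Each sample gave 400 ng of RNA for cDNA synthesis and filled 1 plate. The sample titles and the headings of the deposited tables name the same samples as treated, but another label of each sample reverses the groups. The titles were followed, so every sign below would turn if that label were right. Whether the samples of a group were separate cultures is not stated, and p-values rest on a spread that may be technical.

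Lipolysis is the release of fatty acids and glycerol from stored triacylglycerol. Catecholamines raise cyclic AMP in the adipocyte, cyclic AMP frees the catalytic subunits of protein kinase A from their regulatory subunits, and the free kinase phosphorylates hormone-sensitive lipase and the perilipin coat of the lipid droplet. The phosphorylated lipase moves to the droplet, where it acts mainly on diacylglycerol, after adipose triglyceride lipase has removed the first fatty acid. Both the lipase and the kinase are controlled largely after translation, and the array measured only their mRNA. The array addressed whether rmIL-15 changed the expression of genes of fatty acid metabolism in these cells.

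The wells are annotated by RefSeq transcripts, and all 3 matched the RefSeq annotation of the mouse build GRCm38.p6. *Lipe* (well F03, NM_010719) lies on chromosome 7 from 25379527 to 25398486 on the minus strand, *Prkaca* (well G02, NM_008854) on chromosome 8 from 83972978 to 83996444 on the plus strand, and *Prkacb* (well G03, NM_011100) on chromosome 3 from 146729579 to 146812946 on the minus strand. The annotation gives *Lipe* 2 start windows, *Prkaca* 2 and *Prkacb* 3. The sources used here give no primer positions, so no value can be assigned to transcripts from one start or one splice form. A pseudogene, *Prkaca-ps1*, lies on chromosome X. The well that reports genomic DNA was above Ct 36 or undetermined on every plate.

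Each well yields a threshold cycle (Ct), the cycle at which fluorescence crosses a fixed threshold, so a lower Ct means more RNA. A difference of 1 cycle is 1 unit on the log2 scale if the product doubles at each cycle, which was assumed. The 3 wells had Ct values between 21.95 and 25.27 on all 6 plates, far from the limit of 35. Over the 69 genes under Ct 35 on all plates the median Ct was 24.85 to 25.49 on the rmIL-15 plates and 24.82 to 25.72 on the untreated plates, with the latest in untreated replicate 3. Levels were therefore taken relative to a reference well of the same plate. The main values are relative to the well annotated *Gapdh*, since the methods name GAPDH. The authors' normalized values are instead relative to the well annotated *B2m*, and both are given. Which reference gene each of these wells held cannot be told from the tables, so the main values may not rest on the GAPDH of the methods. The well annotated *Gapdh* was later, on average, than 38 of the 84 genes, and the well annotated *B2m* was later than 2.

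*Lipe* was measured at a higher level with rmIL-15. Relative to the well annotated *Gapdh*, its mean level with rmIL-15 was 1.42 times that of untreated adipocytes (95% interval 1.08 to 1.86), but it did not pass the adjusted test. Its raw Ct was 22.02, 21.95 and 22.21 on the rmIL-15 plates, against 22.19, 22.35 and 23.24 on the untreated plates. The groups overlapped by a small margin on raw Ct, and untreated replicate 3 was the latest of the 6. Relative to the well annotated *Gapdh*, *Lipe* had log2 levels of 3.61, 3.21 and 3.31 in rmIL-15 samples and of 3.05, 2.83 and 2.73 in untreated samples. Every rmIL-15 sample was then above every untreated one. The means were 3.38 ± 0.21 with rmIL-15 and 2.87 ± 0.17 without (SD, n = 3 each), a log2 fold change of 0.51 (standard error 0.16, unadjusted p = 0.020, adjusted p = 0.47 by limma over the 74 genes tested). An exact two-sided permutation test gave p = 0.1, the smallest that 3 samples against 3 allow. Relative to the well annotated *B2m* the log2 levels were -3.29, -3.59 and -3.75 in rmIL-15 samples and -3.88, -3.86 and -4.46 in untreated samples. The groups were again apart, with a log2 fold change of 0.52 (unadjusted p = 0.058, adjusted p = 0.71 by limma). Its 95% interval, -0.02 to 1.07, included 0, unlike that with the well annotated *Gapdh*. In bulk RNA, a change in the share of cells of a type and a change in RNA per cell cannot be told apart.

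No gene of the plate passed an adjusted p under 0.05 by limma, which is 0% of the 74 tested, and the methods' t-test also gave none. 7 genes (9.46%) passed an unadjusted p under 0.05, the threshold of the methods, and 1 of these (1.35%) was higher with rmIL-15. The division by direction moved with the reference, with 3 of 5 such genes higher with the well annotated *Gusb*, 1 of 2 with *Hsp90ab1* and 0 of 3 with *B2m*. With *Gapdh* the gene that was higher was *Lipe*, which had the third smallest p of the 74. The groups did not overlap in 13 genes (17.6%), and 2 of them (2.7%) were higher with rmIL-15, *Lipe* and *Prkag3*, a gamma subunit of AMP-activated kinase. Of the 3 genes described here, 1 passed the unadjusted threshold and 1 had groups that did not overlap. 53 of the 74 genes had a negative sign (38 with the well annotated *Gusb* as reference and 66 with that annotated *Hsp90ab1*), and the median log2 fold change was -0.11.

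*Prkaca* and *Prkacb*, which encode closely related kinases that bind the same regulatory subunits, had opposite signs, and neither passed the test. *Prkaca* is the form expressed in most tissues. Its raw Ct was 23.25, 22.63 and 22.87 with rmIL-15 and 22.52, 22.58 and 23.13 without. Relative to the well annotated *Gapdh* its log2 levels were 2.38, 2.53 and 2.65 with rmIL-15, against 2.73, 2.59 and 2.84 without, and the groups overlapped. The log2 fold change was -0.20 (95% interval -0.52 to 0.12, adjusted p = 0.60 by limma). On a linear scale this was 0.870-fold, with an interval of 0.699 to 1.08. *Prkacb* had a raw Ct of 24.91, 24.64 and 24.91 with rmIL-15 and of 24.71, 24.73 and 25.27 without. Relative to the well annotated *Gapdh* its log2 levels were 0.72, 0.53 and 0.60 with rmIL-15, against 0.53, 0.45 and 0.69 without. These groups overlapped in most of their range, with the lowest value in an untreated sample and the highest in an rmIL-15 sample. The log2 fold change was 0.06 (95% interval -0.24 to 0.35, adjusted p = 0.89 by limma), which was 1.04-fold with an interval of 0.847 to 1.28. With the authors' values the log2 fold changes were -0.18 for *Prkaca* and 0.08 for *Prkacb*. Both kinase genes varied less between samples than most genes of the plate, with a pooled SD within groups of 0.129 cycles for *Prkaca* and 0.112 for *Prkacb*, against 0.189 for *Lipe* and a median of 0.221 over the 74 genes.

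**Figure D1:**
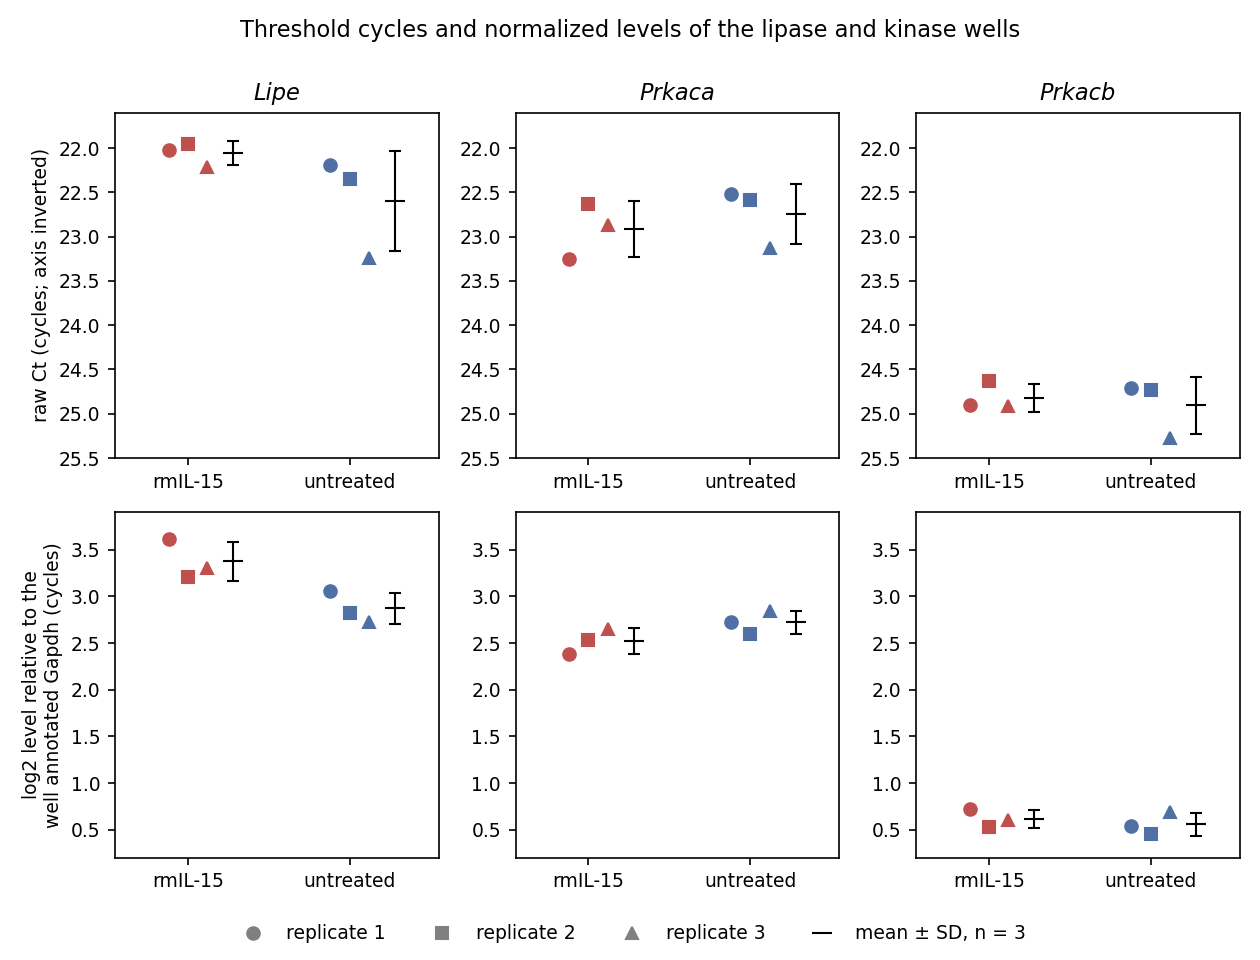
Raw Ct in cycles (upper panels, axis inverted so that more RNA is higher) and log2 level relative to the well annotated *Gapdh* (lower panels) of *Lipe*, *Prkaca* and *Prkacb* in the rmIL-15 and untreated samples, 1 marker shape for each replicate number, with mean ± SD (n = 3). The rmIL-15 samples of *Lipe* sit between 3.21 and 3.61 in the lower panel, all above the untreated samples, and the groups of both kinase genes overlap.

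The difference between 2 wells of the same plate holds no reference gene. The 3 differences among these genes were each compared between the groups. Any 2 of them fix the third, so they are not 3 separate results. *Lipe* relative to *Prkaca* was at 1.23, 0.68 and 0.66 cycles with rmIL-15 and at 0.33, 0.23 and -0.11 cycles without, where a positive value means an earlier Ct for *Lipe*. All rmIL-15 plates were above all untreated plates, and in untreated replicate 3 *Prkaca* came earlier than *Lipe*. The means were 0.86 ± 0.33 and 0.15 ± 0.23 cycles (SD, n = 3 each), a difference of 0.71 cycles, or 1.63-fold (exact permutation test, two-sided, p = 0.1). *Lipe* relative to *Prkacb* was at 2.89, 2.68 and 2.70 cycles with rmIL-15 and at 2.52, 2.38 and 2.03 cycles without, a difference of 0.45 cycles, or 1.36-fold (exact permutation test, p = 0.1). Here too the groups did not overlap. *Prkacb* relative to *Prkaca* was at -1.66, -2.01 and -2.05 cycles with rmIL-15 and at -2.19, -2.14 and -2.14 cycles without. The untreated plates lay within an SD of 0.03 cycles, and each rmIL-15 plate was above them, with a difference of 0.26 cycles, or 1.20-fold (exact permutation test, p = 0.1). This difference was 0.13 cycles without rmIL-15 replicate 1. In an exact permutation test p = 0.1 is the smallest that 3 samples against 3 allow, so none of the 3 comparisons could pass 0.05. The groups did not overlap in 15.9% of the 2346 such differences between the 69 genes under Ct 35 on all plates. Without untreated replicate 3 the 3 differences were 0.58, 0.31 and 0.27 cycles.

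**Figure D2:**
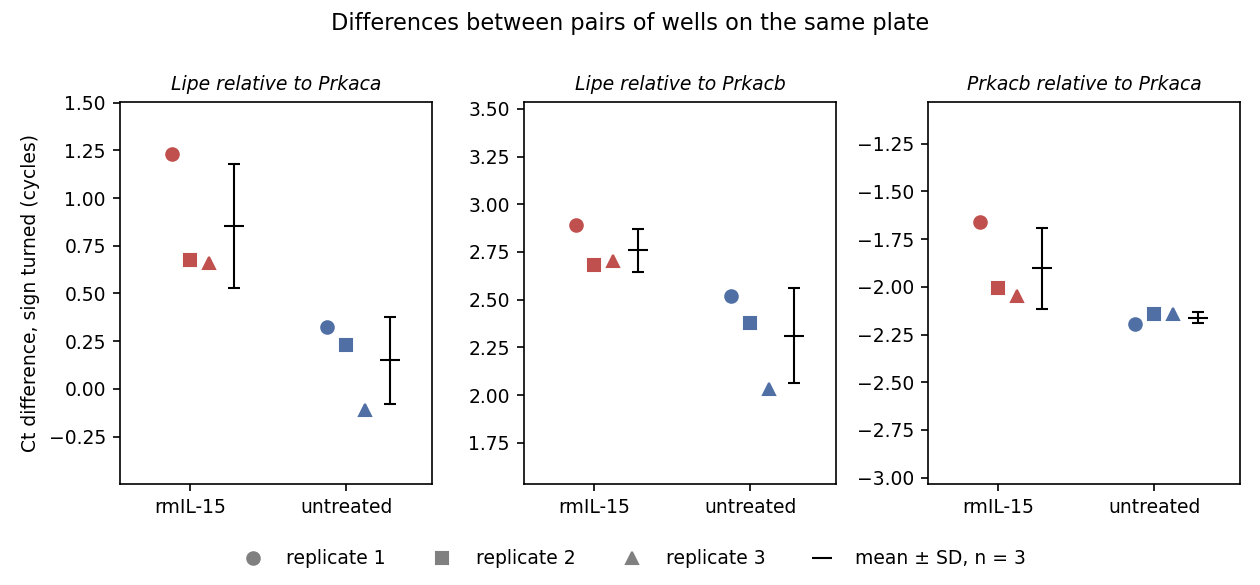
Difference in Ct between pairs of wells on the same plate, in cycles with the sign turned so that a higher value means more RNA of the first gene named, in rmIL-15 and untreated samples, with mean ± SD (n = 3). In each of the 3 panels the rmIL-15 plates lie above the untreated plates, and the smallest difference in means, 0.26 cycles, is that of *Prkacb* relative to *Prkaca*.

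*Lipe* was next set against every other gene of its plate in the same way. Its level relative to the other gene had a higher mean with rmIL-15 for 65 of 68 genes, and for 49 of them all rmIL-15 plates were above all untreated plates. No gene under Ct 35 on all plates exceeded this count of 49, and its median over the 69 genes was 2. A higher mean was more frequent for *Prkag3* (68), *Oxct2a* (67) and *Bdh2* (66), named here for that count. For 0 of the 68 genes were all *Lipe* values lower with rmIL-15. *Prkag3* followed with 46 and *Slc27a1*, which encodes a fatty acid transport protein, with 33. *Prkacb* had 18, the fifth largest count, and *Prkaca* had 3, while *Prkaca* was below with no overlap for 8 genes and *Prkacb* for 1. These counts share the plates and the *Lipe* well, so they are 1 description of the order of genes on the plates and not separate results. For genes below with no overlap, the median count over the 69 genes was 3. The largest such count was 47, for *Acox2*, named here for that count. Fewer samples make groups without overlap more frequent, and leaving out 1 at a time, chosen after seeing the data, gave 49 to 58 for *Lipe*. For *Prkacb* it gave 18 to 30, the highest without untreated replicate 3, and for *Prkaca* 4 to 6.

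**Figure D3:**
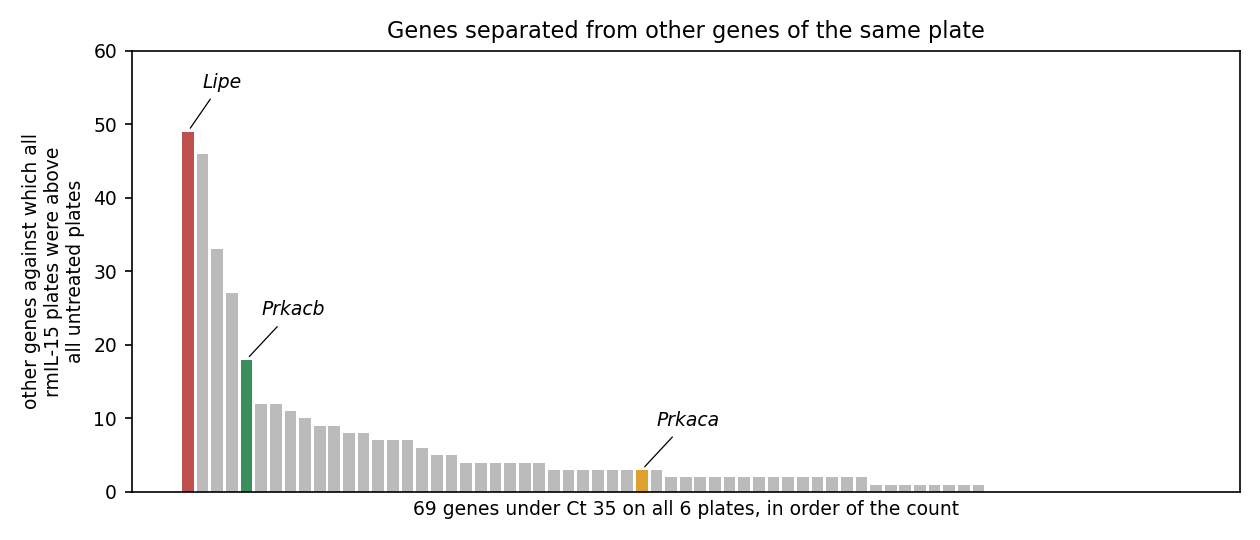
For each of the 69 genes under Ct 35 on all 6 plates, ordered by the count, the number of other genes against which its level on every rmIL-15 plate was above that on every untreated plate. *Lipe* has the largest count, 49 of 68, *Prkacb* has 18 and *Prkaca* has 3.

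A change of reference shifts every gene of a plate by the same amount, so it moves all 3 fold changes together and cannot change their order. The log2 fold change of *Lipe* was between 0.16 and 0.61 over the 7 references, that of *Prkaca* between -0.55 and -0.10, and that of *Prkacb* between -0.29 and 0.16. The lowest values of all 3 came from the well annotated *Hsp90ab1*, which was later on the plate of untreated replicate 1 (Ct 19.55) than on the other plates (18.51 to 18.88). The highest came from the well annotated *Gusb*. The median log2 fold change of all 74 genes moved with them, to -0.46 with *Hsp90ab1* and -0.01 with *Gusb*. *Lipe* had a positive sign with each reference and *Prkaca* a negative one. *Prkacb* turned negative with *Hsp90ab1* alone. *Lipe* passed an unadjusted p under 0.05 by limma with the well annotated *Gapdh*. It also passed with *Gusb* (unadjusted p = 0.041, adjusted p = 0.60) and with the median Ct of the plate (unadjusted p = 0.023, adjusted p = 0.56). It did not pass with *B2m*, with *Actb* (unadjusted p = 0.073, adjusted p = 0.90), with the mean of all 5 reference wells (unadjusted p = 0.12, adjusted p = 0.71) or with *Hsp90ab1* (unadjusted p = 0.80, adjusted p = 0.84). Its adjusted p was between 0.21 and 0.90 over all 21 alternative fits. Without untreated replicate 3, with the well annotated *Gapdh*, *Lipe* was at 0.43 (unadjusted p = 0.054, adjusted p = 0.50 by limma). Without rmIL-15 replicate 1 it was at 0.39 (unadjusted p = 0.052, adjusted p = 0.70), and without untreated replicate 2 at 0.48 (unadjusted p = 0.060, adjusted p = 0.59).

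**Figure D4:**
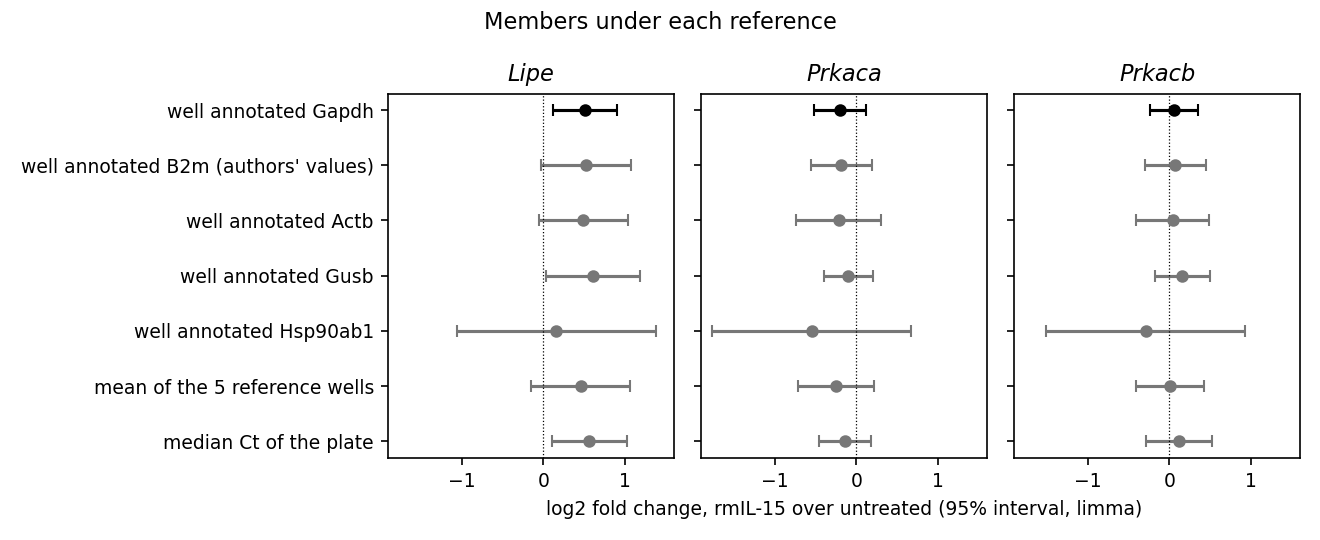
Log2 fold change of rmIL-15 over untreated with its 95% interval by limma (n = 3 each) for *Lipe*, *Prkaca* and *Prkacb*, with each of 7 references in a row; the black points are the main values. *Lipe* lies to the right of 0 in every row and *Prkaca* to the left, and the intervals are widest with the well annotated *Hsp90ab1*.

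Other genes of the pathway on the plate did not pass the test, and their signs were divided much as over the whole plate. The list of lipase partners and triacylglycerol turnover held *Fabp4*, whose protein binds fatty acids and hormone-sensitive lipase, *Lpl*, the lipoprotein lipase that brings fatty acids into the cell, *Gyk*, glycerol kinase, *Gpd1* and *Gpd2*, the glycerol 3-phosphate dehydrogenases, and *Acsl1*, the acyl-CoA synthetase that activates fatty acids. None of the 6 passed the adjusted test, 1 (*Lpl*, log2 fold change -0.31) passed an unadjusted p under 0.05 and was lower, and 5 of 6 had a negative sign (4 with *Gusb* and 6 with *Hsp90ab1* as reference), beside 53 of all 74 genes. Their median was -0.15, beside -0.11 over all 74 genes. *Fabp4*, the earliest of them, had a log2 fold change of 0.12 (adjusted p = 0.82 by limma) and *Acsl1* of -0.52 (adjusted p = 0.58). *Gyk* was at -0.12, *Gpd1* at -0.07 and *Gpd2* at -0.18.

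The 2 lipases, which act inside and outside the cell, had opposite signs. *Lipe* relative to *Lpl* on the same plate was at -3.71, -4.18 and -4.32 cycles with rmIL-15 and at -4.75, -4.85 and -5.06 cycles without. The groups did not overlap, and the difference was 0.82 cycles, or 1.77-fold (exact permutation test, two-sided, p = 0.1). Against each of the 6 genes of the list *Lipe* had a higher mean with rmIL-15, by 0.38 cycles against *Fabp4* to 1.03 cycles against *Acsl1*, and for 5 of the 6 the groups did not overlap, a share near that over all genes (49 of 68).

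The 7 subunits of AMP-activated kinase, an energy-sensing kinase that phosphorylates hormone-sensitive lipase at a site of its own and opposes its activation by protein kinase A, had Ct values later than those of *Prkaca*. None passed an adjusted p or an unadjusted p under 0.05, 2 had a positive and 5 a negative sign (1 and 6 with *Hsp90ab1* as reference), and their median log2 fold change was -0.12. The catalytic subunits *Prkaa1* and *Prkaa2* were at -0.11 (95% interval -0.54 to 0.32) and -0.20 (95% interval -0.89 to 0.50) by limma, side by side with -0.20 for *Prkaca* and 0.06 for *Prkacb*. *Prkag3* had the largest value of the list, 0.78 (95% interval -0.01 to 1.56), at a mean Ct of 30.5 with rmIL-15 and 31.3 without. *Prkab1*, a scaffold subunit, was at 0.14 and *Prkab2* at -0.19, and *Prkag1* and *Prkag2* were at -0.13 and -0.12. *Lipe* relative to these subunits was higher with no overlap of the groups for 5 of 7, a share near that over all genes (49 of 68), and lower in its mean relative to *Prkag3*, by -0.27 cycles.

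**Figure D5:**
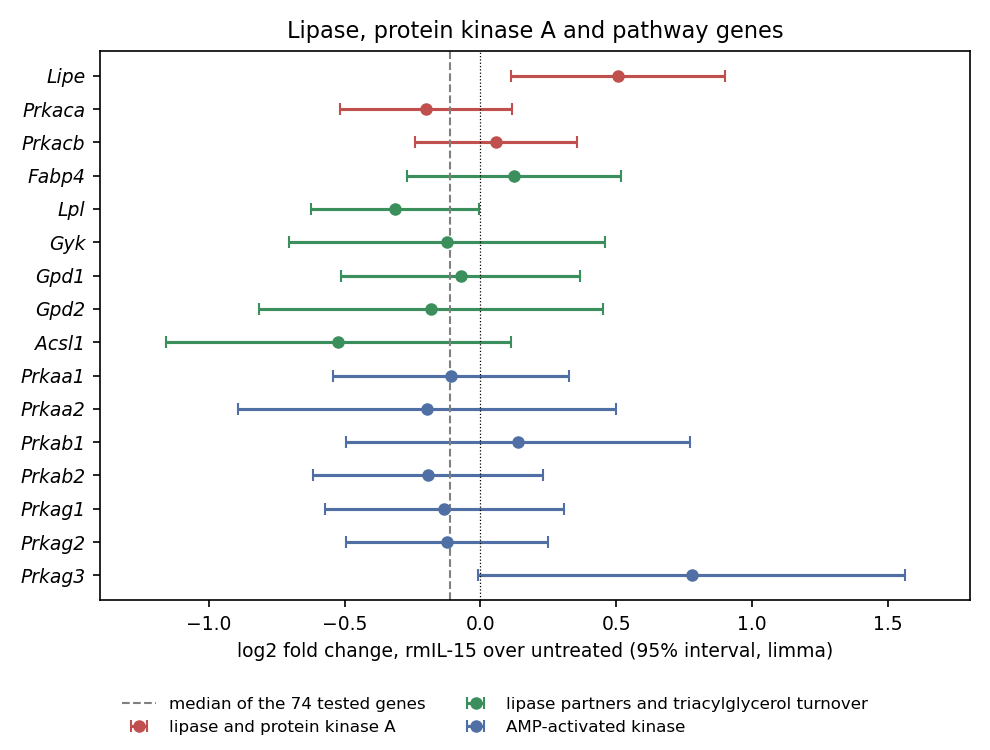
Log2 fold change of rmIL-15 over untreated relative to the well annotated *Gapdh*, with its 95% interval by limma (n = 3 each), for the 3 genes described here, the 6 genes of lipase partners and triacylglycerol turnover and the 7 subunits of AMP-activated kinase; the dashed line is the median of the 74 tested genes, -0.11. *Lipe* and *Lpl* are the genes whose intervals leave out 0, on opposite sides.

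In order of Ct, *Lipe* was earliest of the 3 genes in both groups, followed by *Prkaca* and *Prkacb*. Its mean Ct of 22.06 ± 0.14 cycles with rmIL-15 was the seventh lowest of the 84 genes, and that of 22.59 ± 0.57 cycles without was the 13th lowest (SD, n = 3 each). *Prkaca* was 17th at 22.91 ± 0.31 cycles with rmIL-15 and 16th at 22.74 ± 0.34 cycles without, and *Prkacb* was 30th at 24.82 ± 0.16 cycles and 33rd at 24.90 ± 0.32 cycles. *Lipe* and *Prkaca* did not differ beyond their spread in untreated cells, where their order turned in replicate 3, while *Lipe* came first on each rmIL-15 plate. *Prkacb* came after both on every plate. Ct values of different wells depend on primer efficiency and product length as well as on RNA. Neither is stated, so these ranks order wells and only roughly transcripts.

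The genes whose Ct followed each of the 3 most closely were found by the SD, over the 6 plates, of the difference in Ct between both wells, a description with no test. *Prkaca* was followed by *Hadha*, of the mitochondrial trifunctional protein, with an SD of 0.047 cycles, by *Acad9*, an acyl-CoA dehydrogenase needed for assembly of complex I, with 0.056, and by *Lpl* with 0.087, where the median over 68 genes was 0.249. *Prkacb* was followed by *Crot*, the peroxisomal carnitine octanoyltransferase, with 0.075 cycles, by *Acot7*, an acyl-CoA thioesterase, with 0.098, and by *Crat*, carnitine acetyltransferase, with 0.122. *Lipe* had no such close companion. Its nearest genes were the transport proteins *Slc27a1* and *Slc27a4*, with SDs of 0.237 and 0.245 cycles, and then *Prkacb* with 0.301, and its median over 68 genes was 0.472 cycles. *Prkaca* ranked 33rd of 68 in likeness to *Lipe*, with an SD of 0.462 cycles. Within groups the SD of that difference was 0.33 cycles with rmIL-15 and 0.23 without, so the ranks for *Lipe* partly restate its fold change. The ranks for *Prkaca* and *Prkacb* also include any difference between the groups. *Prkaca*, *Hadha*, *Acad9* and *Lpl* had log2 fold changes of -0.20, -0.23, -0.27 and -0.31 relative to the well annotated *Gapdh*.

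The labelled cell type was checked against its markers. All 6 genes of mature adipocytes fixed for this purpose (*Fabp4*, *Lpl*, *Lipe*, *Gpd1*, *Acsl1* and *Slc27a1*) were under Ct 25 in both groups on average, *Fabp4* at 16.6 cycles with rmIL-15 and 16.8 without, and 3 of them had a positive and 3 a negative sign (4 and 2 with *Gusb*, 2 and 4 with *Hsp90ab1*), with a median log2 fold change of 0.03 (-0.02 with the mean of the 5 reference wells and -0.32 with *Hsp90ab1*). The adipocyte list holds *Lipe* itself, so its signs are not separate from the result for *Lipe*. With the well annotated *Gapdh*, the 3 positive log2 fold changes were *Lipe* (0.51), *Slc27a1* (0.39) and *Fabp4* (0.12). Of the liver genes, *Fabp1*, *Slc27a5* and *Slc27a2* were not under Ct 35 in all 3 samples of either group. The intestinal *Fabp6* and the testis gene *Gk2* were not under it either, and the intestinal *Fabp2* was under it in all rmIL-15 samples, at a mean Ct of 34.0, and not in all untreated ones. *Cpt1c*, the gene of the brain list that was measured, was earlier, at a mean Ct of 28.5 with rmIL-15 and 28.4 without (log2 fold change -0.06, adjusted p = 0.97 by limma). The muscle list of *Fabp3*, *Cpt1b* and *Prkag3* was at mean Ct values of 30.5 to 31.5 with rmIL-15 and 30.9 to 31.4 without.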

How the data were processed

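Real-time PCR with SYBR green was run on 96-well plates, 1 for each of 6 samples. The authors deposited the raw Ct of each well in cycles. A further deposited table holds normalized Ct, which is log2 with its sign reversed. Its values are the Ct, held to at most 35, less the Ct of the well annotated *B2m* (largest deviation 3.6e-15 cycles). The authors' table of fold changes between the groups was not used, nor were 6 further columns of per-sample values.

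Here, Ct was limited to 35, undetermined wells included, and each plate's *Gapdh* well minus the gene's well gave its log2 level. Genes needed a Ct under 35 in every sample of either group, which left 74 of 84. These were fitted with limma 3.58.1 (R 4.3.3), with Benjamini-Hochberg adjustment over all of them. Differences between 2 wells were compared by exact two-sided permutation over samples. The fit was tested on simulated data in which every gene had the same SD, unlike these data. Its power for a change of the size of that of *Lipe* is not reported here. Each gene had 1 well per plate, so SDs include the error of the well.

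The genes described and the pathway lists were chosen with earlier results of these data known. Named are the 3 genes, the members of the 2 pathway lists, and the 3 genes closest to each in Ct. Glycerol kinase, *Gk* in the list, is *Gyk* in the tables. 1 gene of the liver list is not reported here. *Fabp7* of the brain list was not analysed here. *Slc27a1* in the count over all genes was named after its value was seen. RefSeq identifiers of 89 wells matched GRCm38.p6, 87 under the same symbol. Alternatives were 6 references, Ct limits, filters, tests, a block on the replicate number and leaving out each sample. Figures were drawn with matplotlib 3.10.9.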

Additional observations from a re-analysis of the deposited data

How the results depend on the processing

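Of the 21 alternatives, those that change the reference or leave out a sample can move a fold change, and the others, by construction, cannot. With 6 other references and with each of 6 samples left out, *Lipe* had a positive sign and *Prkaca* a negative one, and *Prkacb* a positive one except with the well annotated *Hsp90ab1* as reference, at -0.29. None of the 3 passed an adjusted p under 0.05 in any of the 21. *Lipe* passed an unadjusted p under 0.05 in 13 of 21, *Prkaca* and *Prkacb* in 0. The 13 include all the alternatives that cannot move its fold change. *Lipe* did not pass with the mean of the 5 reference wells, or with the wells annotated *B2m* (limma and t-test), *Actb* or *Hsp90ab1*. Nor did it pass without rmIL-15 replicate 1, untreated replicate 2 or untreated replicate 3. Leaving out 1 sample at a time gave log2 fold changes of 0.39 to 0.60 for *Lipe*, -0.27 to -0.13 for *Prkaca* and 0.0024 to 0.12 for *Prkacb*. It gave differences of 0.52 to 0.81 cycles for *Lipe* relative to *Prkaca*, 0.31 to 0.55 for *Lipe* relative to *Prkacb* and 0.13 to 0.33 for *Prkacb* relative to *Prkaca*. The count of 7 genes at an unadjusted p under 0.05 was 3 with the well annotated *B2m* as reference, 2 with *Hsp90ab1*, 4 with the methods' t-test and the *B2m* well, 4 with the replicate block, and 4 to 7 when 1 sample was left out, the lowest without rmIL-15 replicate 1; the cause was not tested. Of these genes 1 of 7 was higher with rmIL-15 in the main setting, 0 of 4 with the methods' t-test and the *B2m* well, 2 of 4 with the block, 3 of 5 without untreated replicate 1 and 3 of 6 without rmIL-15 replicate 2. The count at an adjusted p under 0.05 was 0 in all 21. Same-numbered samples showed no shared deviation (correlations across 74 genes of -0.27, 0.09 and -0.27), so the number was not used as a pairing. Between differently numbered samples the correlations were -0.41 to 0.56. The positive ones were rmIL-15 replicate 1 with untreated replicate 3 (0.56), 3 with 2 (0.41) and 2 with 1 (0.40). Together these pair every sample, and the others were negative. A pairing in another order was not tested. With the replicate number as a block *Lipe* was at 0.51 (unadjusted p = 0.019, adjusted p = 0.72 by limma). The 3 differences between wells then each had p = 0.25 by an exact sign-flip permutation test, the smallest that 3 pairs allow. The 3 samples a group limit the precision to the intervals given.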
